A study of Mus musculus with 4 samples.

Results

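The accessible chromatin around 10 genes that encode subunits of the Polycomb repressive complexes was compared between B16F10 cells carrying a guide RNA against Arid1a and B16F10 cells carrying a scrambled guide. The genes were taken by name from the known make-up of the complexes, 5 from PRC2 (Ezh1, Ezh2, Eed, Suz12 and Jarid2) and 5 from PRC1 (Bmi1, Rnf2, Ring1, Cbx2 and Cbx7). Each gene was read over its gene body and 10 kb on each side, called its window below. They are 10 of 21887 protein-coding mouse genes, and their windows held 84 of 103629 accessible regions. A region is a stretch of the genome in which peaks of any of the 4 libraries overlapped by at least 1 bp, and none of the 84 lay in more than 1 of the windows.

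B16F10 is an established mouse melanoma line. The sgArid1a group (2 libraries) carried a guide against Arid1a, whose protein is part of the BAF (SWI/SNF) nucleosome remodeller and binds DNA, and the sgScramble group (2 libraries) carried a scrambled guide. Open chromatin was tagged by the Omni-ATAC protocol, in which the Tn5 transposase inserts adapters where DNA is not wrapped up, with 50000 cells per reaction. The labels name no other allele or agent, do not say whether the edited cells were a pool or 1 clone, and do not say that the replicates were separate cultures, so the spread between replicates may be technical.

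Polycomb proteins keep genes silent by marking histones. In PRC2, the catalytic subunit EZH2 or its paralogue EZH1 methylates lysine 27 of histone H3, while EED and SUZ12 hold the enzyme in its active form and JARID2 helps to bring it to chromatin. In PRC1, the E3 ligases RNF2 (RING1B) and RING1 attach ubiquitin to histone H2A with a partner such as BMI1, and chromobox proteins such as CBX2 and CBX7 read the PRC2 mark. BAF remodellers and Polycomb complexes are known to act against each other at many genes.

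The RefSeq promoter table of GRCm38.p6 held 9 of the 10 genes, all but Cbx2, with 10 start sites because Jarid2 had 2. A promoter here is the 250 bases before the start and the 50 after it. The promoters of Ezh2, Eed, Suz12, Jarid2 (first start) and Cbx7 are shown, picked after their values were seen: Ezh2 is the main catalytic subunit of PRC2, and the start regions of the other 4 stood apart in rank between the groups, as given further on. Each is written 5′ to 3′ on the gene's own strand, with capitals marking matches to the searched motifs on either strand, which are spelled out after the sequences.
Ezh2, chr6:47594981-47595280, minus strand: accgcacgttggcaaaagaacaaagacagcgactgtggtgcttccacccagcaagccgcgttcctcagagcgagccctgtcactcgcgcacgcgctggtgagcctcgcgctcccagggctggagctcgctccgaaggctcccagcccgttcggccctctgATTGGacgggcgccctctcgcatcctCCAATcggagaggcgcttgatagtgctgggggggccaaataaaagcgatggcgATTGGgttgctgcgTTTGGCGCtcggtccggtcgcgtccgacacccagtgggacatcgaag
Eed, chr7:89980927-89981226, minus strand: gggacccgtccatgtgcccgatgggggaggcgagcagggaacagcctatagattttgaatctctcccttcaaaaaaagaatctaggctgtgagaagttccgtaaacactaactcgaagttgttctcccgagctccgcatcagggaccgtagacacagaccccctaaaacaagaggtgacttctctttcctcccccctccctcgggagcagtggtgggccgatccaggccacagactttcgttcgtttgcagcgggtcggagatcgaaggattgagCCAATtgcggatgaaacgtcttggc
Suz12, chr11:79992856-79993155, plus strand: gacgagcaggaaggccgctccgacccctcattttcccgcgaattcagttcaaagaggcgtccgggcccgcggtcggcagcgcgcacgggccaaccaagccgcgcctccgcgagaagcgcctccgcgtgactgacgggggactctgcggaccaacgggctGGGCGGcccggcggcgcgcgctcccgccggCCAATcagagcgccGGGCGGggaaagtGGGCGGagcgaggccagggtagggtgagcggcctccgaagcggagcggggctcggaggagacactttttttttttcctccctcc
Jarid2, chr13:44730524-44730823, plus strand: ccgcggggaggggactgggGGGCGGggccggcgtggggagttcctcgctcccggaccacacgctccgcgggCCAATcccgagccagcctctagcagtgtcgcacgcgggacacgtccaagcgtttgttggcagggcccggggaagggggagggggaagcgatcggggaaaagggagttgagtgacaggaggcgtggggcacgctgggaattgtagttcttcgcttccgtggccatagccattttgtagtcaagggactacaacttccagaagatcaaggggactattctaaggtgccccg
Cbx7, chr15:79932597-79932896, minus strand: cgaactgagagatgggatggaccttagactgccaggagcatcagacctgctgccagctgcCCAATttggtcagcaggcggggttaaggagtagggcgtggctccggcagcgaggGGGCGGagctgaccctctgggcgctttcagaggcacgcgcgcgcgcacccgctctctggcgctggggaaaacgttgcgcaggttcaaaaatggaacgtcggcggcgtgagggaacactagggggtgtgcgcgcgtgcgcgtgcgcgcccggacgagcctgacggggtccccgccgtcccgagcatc

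The promoters of these genes held more CG than the median promoter, though Eed, the lowest, held more than only 57.3% of promoters. The number of CG dinucleotides was 31 in Ezh2, 17 in Eed, 41 in Suz12, 23 in Ezh1, and 24 and 23 at the 2 Jarid2 starts. Among the PRC1 genes it was 23 in Bmi1, 30 in Rnf2, 37 in Ring1 and 33 in Cbx7. All 10 counts lay above the median of 13 over 21263 protein-coding promoters (quartiles 4 and 24). The GC box GGGCGG, the core of the SP/KLF motif, was present in 7 of the 10 promoters against 46.2% of all promoters, with 6 copies in Bmi1 and 3 each in Suz12 and Ring1, overlapping copies included. The CCAAT box, bound by NF-Y, was present in 6 of 10 against 38.2% of all promoters, with 3 copies in Ezh2. Ezh2 was the only member promoter with the E2F-type word TTTGGCGC or its sister TTTCGCGC, present in 1.05% of all promoters, and the word lay downstream of its CCAAT copies. TATAAA occurred in 1 of 10, at the second Jarid2 start, against 12.6% of all promoters. No member promoter held the ETS word CCGGAAG, found in 11.6% of all promoters, or the CRE palindrome TGACGTCA, found in 2.23%. The AP-1 word TGANTCA (in 6.99% of all promoters), the YY1 word AAGATGGCG (in 1.83%) and the NRF1 palindrome (in 1.33%) were absent as well. All motifs were searched on both strands, no match to 1 motif overlapped a match to another in these 10 promoters, and a match is a description of the letters and not a bound site.

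The data of each library are a list of broad peaks called by the authors, and the sgArid1a lists were shorter. They held 65353 and 71255 peaks in sgArid1a replicates 1 and 2, against 82319 and 85613 in sgScramble replicates 1 and 2, and covered 53.7 and 62.6 Mb against 73.9 and 75.8 Mb. Covered length over the whole lists thus differed by -22.3% and peak number by -18.7%, which is the background for every count below. The lists give no read counts, so depth is unknown. A gene-end peak (within 1 kb of either end) was present in all 4 lists at 7 of 7 melanocyte genes. Of 13 marker genes of other cell types, 5 and 6 had a gene-end peak in sgArid1a, against 7 and 5 in sgScramble. Cd3g, Cd4, Krt8, Col1a1 and Pdgfra had such a peak in all 4 lists, and Ptprc, Adgre1, Cd8a, Pecam1, Cdh5 and Epcam had none in any list. The Arid1a window itself (gene body chr4:133679008-133756769) had 8038 and 9230 bp under peaks in sgArid1a, against 12410 and 12336 bp in sgScramble, with 5 of its 9 regions in all lists and 3 missing from both sgArid1a lists. A guide-made edit need not remove an accessible region, so this is no check of the knockout.

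Summed over the member windows, less sequence was covered by peaks in sgArid1a, to about the same degree as in the whole lists. The 10 windows had 49197 and 59901 bp under peaks in sgArid1a replicates 1 and 2, against 67254 and 69616 bp in sgScramble replicates 1 and 2. Both sgArid1a values lay below both sgScramble values, and sgArid1a replicate 1 was the lowest. The means were 54549 ± 7569 bp in sgArid1a and 68435 ± 1670 bp in sgScramble (SD, n = 2 each), a difference of -20.3% (exact permutation test, two-sided, p = 0.33, which is the smallest p that 2 libraries against 2 can give). The sign depended on the scale: scaled to the list, the windows held 916 and 957 bp per Mb of covered length in sgArid1a, against 910 and 919 bp per Mb in sgScramble, a difference of +2.40% (exact p = 0.667). With all lists cut to the length of the shortest by fold, the difference was +15.0% (exact p = 0.33).

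The number of peaks followed the same course. The windows held 54 and 63 peaks in sgArid1a, against 67 and 72 in sgScramble, a difference of -15.8% (exact p = 0.33). Per 100000 peaks of the list these were 82.6 and 88.4 in sgArid1a, against 81.4 and 84.1 in sgScramble, and the groups overlapped. The PRC2 windows had 26488 and 36775 bp covered in sgArid1a, against 39720 and 41932 bp in sgScramble (-22.5%). The PRC1 windows had 22709 and 23126 bp in sgArid1a, against 27534 and 27684 bp in sgScramble (-17.0%). The PRC2 difference carried a wide replicate spread, since the 2 sgArid1a libraries differed more from each other than sgArid1a replicate 2 did from either sgScramble library, whereas the PRC1 replicates lay close together in bp. Scaled to the list, the PRC2 windows held 493 and 588 bp per Mb in sgArid1a, against 537 and 554 in sgScramble. The PRC1 windows held 423 and 370 bp per Mb in sgArid1a, against 372 and 365 in sgScramble, so on that scale the PRC1 mean was higher in sgArid1a and its 2 sgArid1a replicates were far apart. On this scale the groups overlapped for both complexes.

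Gene by gene, 8 of the 10 members had less covered length in both sgArid1a lists than in either sgScramble list, 0 had more, and Ezh1 and Ring1 overlapped. Over all 17747 protein-coding genes with a peak in their window, 53.9% were lower and 3.17% higher in the same sense. The median difference was -20.2% for the members (range -33.1% to -2.25%) and -16.3% for all genes with a peak in an sgScramble list (quartiles -28.5% and -5.33%). The number of peaks was lower in both sgArid1a lists at 3 members, Ezh2, Rnf2 and Cbx7, against 23.1% of all genes. These differences are in bp under peaks. Scaled to the list's covered length, 6 members turned to a higher mean in sgArid1a (Ezh1, Jarid2, Bmi1, Ring1, Cbx2 and Cbx7). The means of Ezh2 (-3.04%), Eed (-13.5%), Suz12 (-11.3%) and Rnf2 (-13.6%) stayed lower. On that scale only Eed and Rnf2 were lower in both sgArid1a lists, and Bmi1 and Ring1 were higher in both. The groups overlapped at the other members. With lists of equal length, Ezh1, Jarid2, Bmi1, Ring1 and Cbx7 had a higher mean in sgArid1a, most at Jarid2 (+54.6%) and Cbx7 (+107%), and 3 members were lower in both sgArid1a lists.

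**Figure D1:**
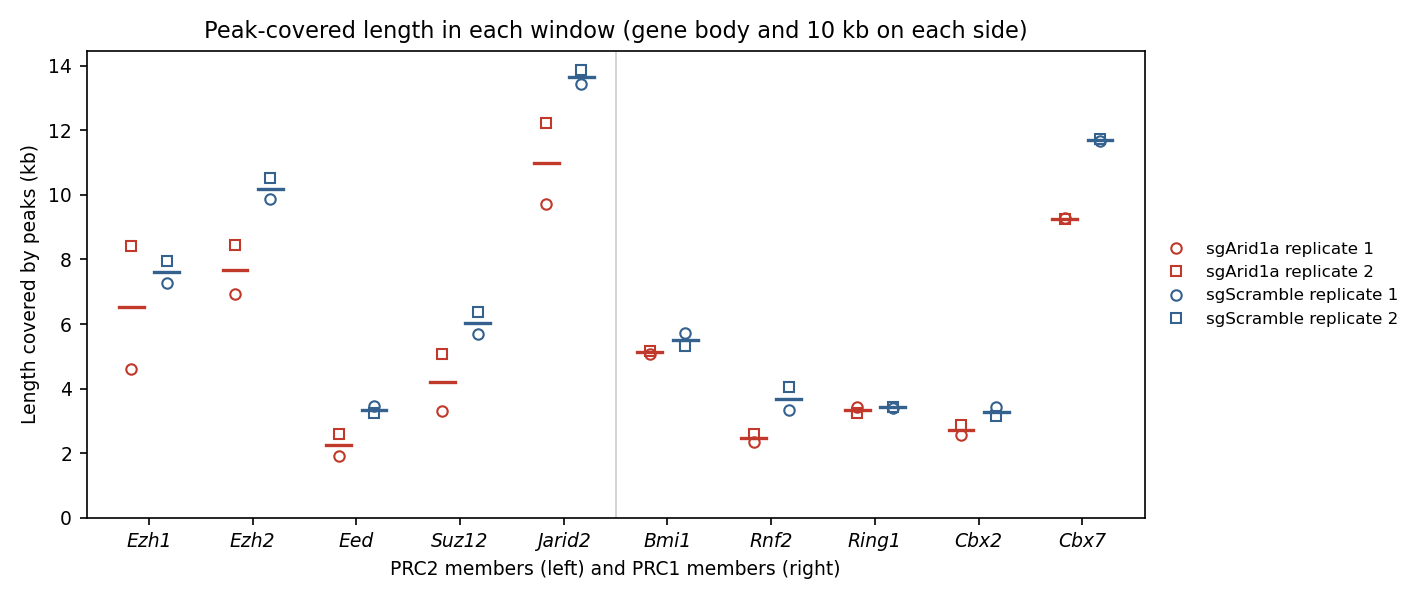
Length covered by peaks (kb, y axis) in the window of each of the 10 genes (x axis), with sgArid1a libraries in red left of sgScramble libraries in blue, circles for replicate 1, squares for replicate 2 and bars for the group means. The red symbols lie below the blue ones at 8 genes, and overlap them at Ezh1 and Ring1.

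Among the PRC2 genes, the catalytic subunit Ezh2 had 6935 and 8438 bp covered in sgArid1a, against 9857 and 10516 bp in sgScramble (-24.5%), over 11 regions. Both sgArid1a libraries were below both sgScramble libraries. The start region hardly contributed, with 1827 and 1809 bp in sgArid1a, against 1840 and 1818 bp in sgScramble. The 4 other shared regions inside the gene were each narrower in both sgArid1a lists. The region 29059 bp from the start had 362 and 708 bp covered in sgArid1a, against 1022 and 1232 bp in sgScramble, and the one 10517 bp from the start had 1020 and 1370 bp, against 1525 and 1503 bp. Its paralogue Ezh1, which makes a less active PRC2 and prevails in resting cells, had 4607 and 8419 bp in sgArid1a, against 7279 and 7957 bp in sgScramble, so sgArid1a replicate 2 was the highest and replicate 1 the lowest of the 4. At Ezh1, 5 of 9 regions were in all lists. The difference of -14.5% at Ezh1 turned to +10.5% without sgArid1a replicate 1.

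In the windows with 10 kb on each side, the scaffold genes had the largest relative differences of the PRC2 group. Eed had 1917 and 2610 bp covered in sgArid1a, against 3460 and 3233 bp in sgScramble (-32.4%). It held only 3 regions, and in sgArid1a replicate 1 its whole covered length was the start region. The region 206 bp beyond the other end of Eed had 0 and 572 bp in sgArid1a, against 1367 and 666 bp in sgScramble. Over the gene body alone, Eed differed by -5.38%, the least of the PRC2 genes. There Jarid2 was at -11.7%, Ezh1 at -17.4%, Ezh2 at -32.2% and Suz12 at -40.6%. With 5 kb on each side Eed was at -27.9%, with 20 kb at -19.9%, and in the upper 50% by fold at -6.81%. Suz12 had 3304 and 5084 bp in sgArid1a, against 5682 and 6361 bp in sgScramble (-30.3%), with the groups apart. The clearest single region at Suz12 lay 14804 bp inside the gene (chr11:80007910-80009419): it was present in all lists, but 269 and 255 bp of it were covered in sgArid1a, against 1440 and 1510 bp in sgScramble. The percentile of its fold within the list was 71.0 and 70.2 in sgArid1a, against 82.4 and 39.7 in sgScramble, so its rank overlapped while its width did not.

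Jarid2, the accessory subunit, is the longest member (190870 bp) and held 23 regions, of which 12 were in all lists and 9 in 1 list only. It had 9725 and 12224 bp covered in sgArid1a, against 13442 and 13865 bp in sgScramble (-19.6%). Without Jarid2 the other 9 windows together differed by -20.5%, an alternative chosen after the data were seen. Jarid2 also held the strongest region of the 10 windows, 138300 bp from its second start (chr13:44869571-44870023). By the authors' fold, it ranked 7 and 10 in the sgArid1a lists, against 10 and 11 in the sgScramble lists, counted from the top. Its covered length was 453 and 453 bp in sgArid1a, against 453 and 452 bp in sgScramble, so the libraries differed by at most 1 bp at this narrow region. The region 146574 bp from the second start was absent in sgArid1a replicate 1 and had a fold percentile of 13.3 in sgArid1a replicate 2, against 59.6 and 68.1 in sgScramble.

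In PRC1, the ligase gene Rnf2 had 2349 and 2584 bp covered in sgArid1a, against 3324 and 4047 bp in sgScramble (-33.1%), in 4 and 4 peaks against 6 and 7. The 4 regions absent from both sgArid1a lists or seen once in sgScramble all lay in the gene body, between 15031 and 25719 bp from the start. The start region and the 3 regions in the flanks were in all lists. Its paralogue Ring1 is a short gene (3889 bp), and its 3 regions were in all lists. It had 3441 and 3250 bp in sgArid1a, against 3402 and 3443 bp in sgScramble (-2.25%, exact p = 0.667). In bp under peaks this was the smallest relative difference of the 10. Scaled to the list, Ring1 was higher in both sgArid1a lists (+26.8%), the largest relative difference of the 10 on that scale. With lists of equal length, Ring1 differed by +31.2%. Of its 3 regions, 1 was its own start, and the others covered the ends of its neighbours H2-Ke6 and Slc39a7.

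Bmi1, the RING partner, had 5075 and 5177 bp covered in sgArid1a, against 5712 and 5315 bp in sgScramble (-7.03%). All 5 of its regions were in all lists, and 3 of them covered or adjoined the ends of Commd3, Gm46725 and Spag6. The strongest region of the Bmi1 window by fold was the Spag6 end and not Bmi1 itself, at percentiles 98.2 and 97.2 in sgArid1a, against 97.3 and 94.1 in sgScramble. The Bmi1 start region was the only one of the 10 start regions that was wider in both sgArid1a lists, with 1709 and 1606 bp, against 1414 and 1422 bp in sgScramble.

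The chromobox genes both had fewer bp under peaks in sgArid1a, a direction that turned when scaled to the list (+6.44% at Cbx2 and +2.47% at Cbx7) and, at Cbx7, with lists of equal length (+107%). Cbx2 had 2566 and 2871 bp in sgArid1a, against 3417 and 3162 bp in sgScramble (-17.4%). Its 3 regions were all in all lists, and 2 of them lay nearest to Cbx8, the adjoining chromobox gene, so the difference came mainly from the region over its own gene end. Cbx7 had 9278 and 9244 bp in sgArid1a, against 11679 and 11717 bp in sgScramble (-20.8%), in 7 and 8 peaks against 10 and 10. Its replicates were the closest of any member. A broad region of 3287 bp inside the Cbx7 gene body (chr15:79949459-79952745) was covered over 3165 and 2976 bp in sgArid1a, against 3236 and 3197 bp in sgScramble. The Cbx7 start region differed more, with 2970 and 3457 bp in sgArid1a, against 3979 and 3951 bp in sgScramble.

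The rank of the strongest peak in each window, as its fold percentile in the list, differed little between the groups at most members. It was 79.6 and 88.5 in sgArid1a, against 78.7 and 95.4 in sgScramble, at Ezh1, and 88.2 and 85.5 against 86.5 and 84.9 at Ezh2. Eed had 78.9 and 79.3 in sgArid1a, against 68.6 and 68.9 in sgScramble, and its groups did not overlap. Suz12 had 83.9 and 82.3 in sgArid1a, against 82.4 and 76.7 in sgScramble. Among PRC1 genes, Cbx2 had 96.8 and 96.3 in sgArid1a, against 82.4 and 91.3 in sgScramble, and Cbx7 had 86.1 and 67.8 against 86.0 and 82.4. Rnf2 had 93.1 and 93.7 in sgArid1a, against 95.0 and 88.7 in sgScramble, and Ring1, the weakest, had 57.0 and 52.2 against 53.4 and 60.4. A percentile in a list depends on how far down the list was called, and the sgScramble lists reached further, so these are values within each list and no measure of change between them.

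Region by region, the members' accessible chromatin was mostly shared. A peak was present in all 4 lists at 50 of the 84 regions (59.5%, against 51.0% of all regions), in 3 lists at 8 (9.52%, against 12.1%), in 2 at 6 (7.14%, against 14.5%) and in 1 at 20 (23.8%, against 22.3%). By library, 64.3% and 75.0% of the member regions had a peak in sgArid1a, against 79.8% and 85.7% in sgScramble. For all regions these shares were 62.4% and 68.4% in sgArid1a, against 79.1% and 82.1% in sgScramble. Every region of Bmi1, Ring1 and Cbx2 was in all 4 lists.

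**Figure D2:**
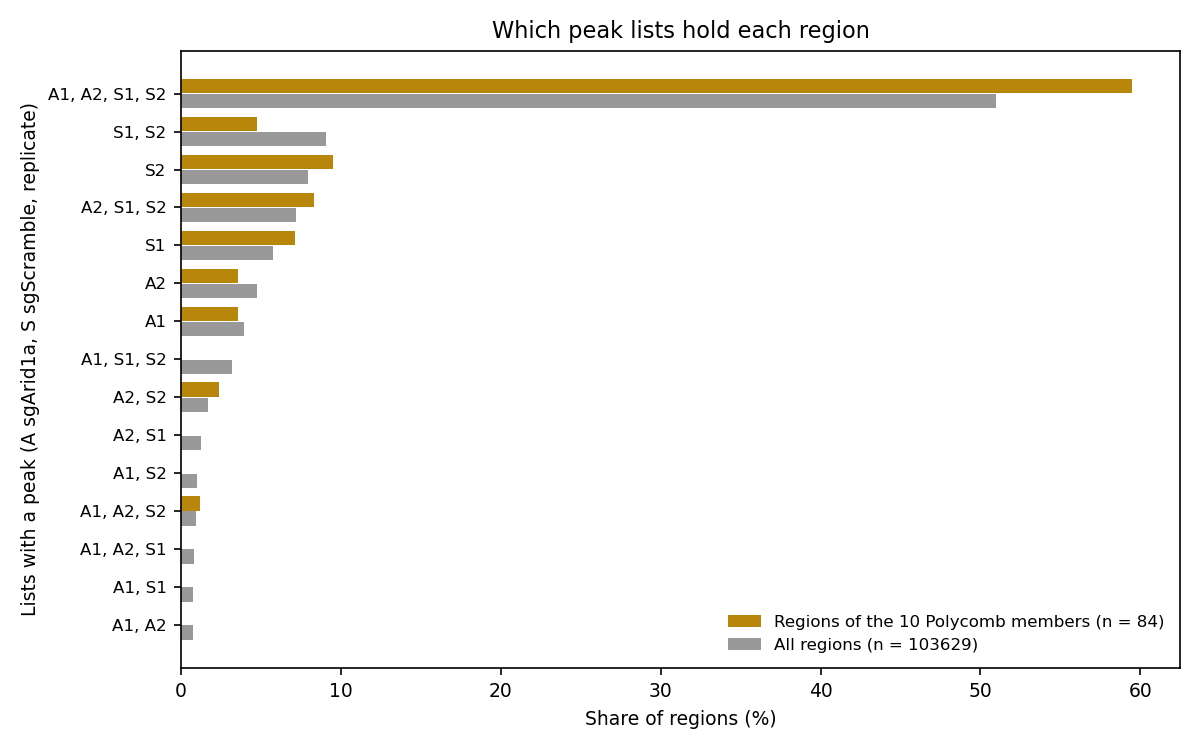
Share of regions (%, x axis) held by each combination of peak lists (y axis, A for sgArid1a and S for sgScramble, with the replicate number), for the 84 member regions in gold and for all 103629 regions in grey. Regions in all 4 lists are the most frequent in both sets (59.5% and 51.0%), and no member region was held by both sgArid1a lists alone.

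Of the 61 member regions found in sgScramble replicates 1 and 2 alike, 4 had no peak in either sgArid1a list (6.56%, against 12.9% of 73056 such regions). In the other direction, 0 of the 51 member regions found in both sgArid1a replicates lacked a peak in both sgScramble replicates, against 1.39% of 55449 regions. Gene-end regions accounted for none of the missing ones (0 of 19, against 3.08%), and distal regions for all of them (4 of 42, 9.52%, against 15.1%). A further 7 regions in both sgScramble lists were absent from sgArid1a replicate 1 only (11.5%, against 10.2%) and 0 from sgArid1a replicate 2 only (against 4.54%). Leaving out a library drops a condition of the definition, so these counts can only stay or grow. Without sgArid1a replicate 1, the missing regions numbered 4 of 61 (6.56%, against 17.4% of all regions), and without sgArid1a replicate 2, 11 of 61 (18.0%, against 23.1%). Without sgScramble replicate 1 they numbered 12 of 72 (16.7%, against 20.8%) and without sgScramble replicate 2, 10 of 67 (14.9%, against 18.9%). In the other direction there were 3 of 63 without sgArid1a replicate 1 (4.76%, against 8.01%) and 3 of 54 without sgArid1a replicate 2 (5.56%, against 7.52%). The members' share lay below that of all regions in each of these settings.

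The 4 missing regions lay at Ezh2, Jarid2, Rnf2 and Cbx7, each inside a gene body and none at a start. In Ezh2 the region chr6:47567953-47568468 (516 bp) lay 26562 bp from the start, with fold percentiles of 60.7 and 30.4 in the sgScramble lists and −log10 q of 11.9 and 7.07. In Cbx7 the region chr15:79964961-79965326 (366 bp) had percentiles of 68.8 and 64.3 and −log10 q of 11.8 and 11.4. It lay 32315 bp upstream of the start in the promoter table, within the longer gene body of the gene table. The Cbx7 region was thus stronger in sgScramble than 94.4% of the 9388 regions missing genome-wide, and the Ezh2 region stronger than 77.5%. The regions at Rnf2 (chr1:151479517-151479946, 430 bp, 21045 bp from the start) and Jarid2 (chr13:44868022-44868588, 567 bp, 136751 bp from the second start) were weak. Their percentiles in sgScramble were 34.1 and 11.0 at Rnf2 and 1.42 and 4.07 at Jarid2, and the second −log10 q at Rnf2 was 1.69, where the lists begin just above 1. With all lists cut to the same length, the Ezh2 and Cbx7 regions were still missing, and those of Rnf2 and Jarid2 were no longer counted.

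**Figure D3:**
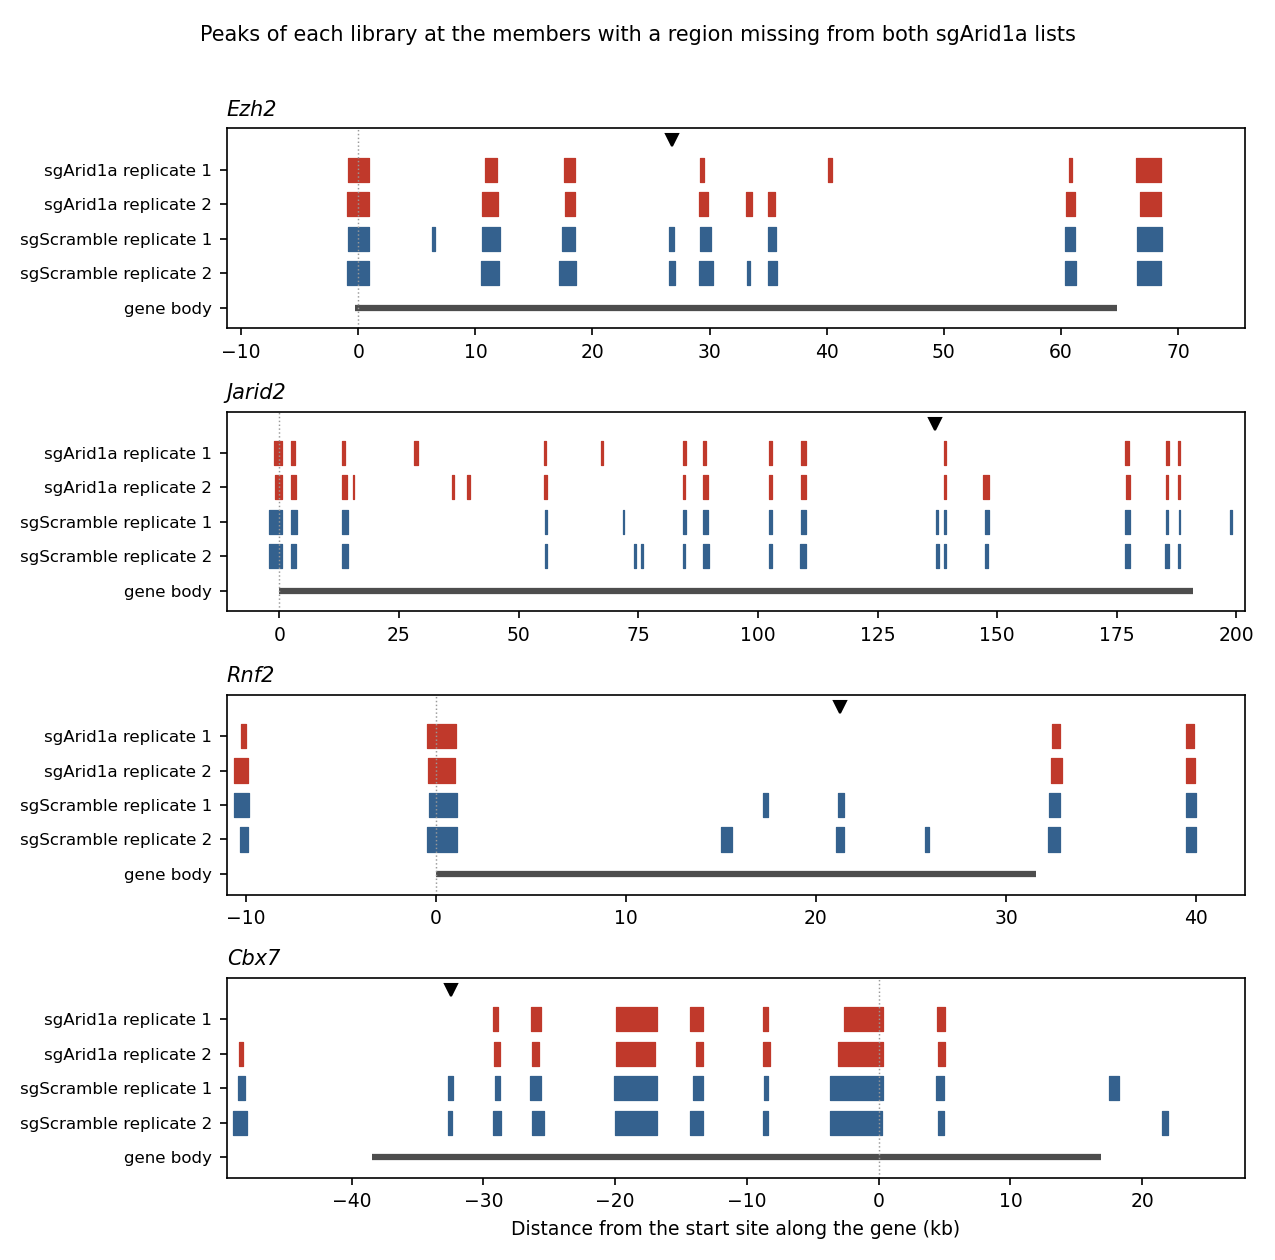
Peaks of each library (red for sgArid1a, blue for sgScramble, 1 row per replicate) against distance from the start site along the gene (kb, x axis) in the windows of Ezh2, Jarid2, Rnf2 and Cbx7, with the gene body as a grey bar, the start as a dotted line and the region missing from both sgArid1a lists under a black triangle. The missing regions lie in gene bodies, 26562 bp from the start at Ezh2, 136751 bp at Jarid2 and 21045 bp at Rnf2, and 32315 bp upstream of the start at Cbx7, while the start peaks are present in all rows. At Jarid2 the peaks are drawn from the first start, while the triangle and the 136751 bp are measured from the second.

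All 9 genes of the promoter table had a peak over their start in all 4 lists. Cbx2 was read over the gene end that its strongest region overlaps, so a peak there was fixed in advance. Of 17492 protein-coding genes in the promoter table, 54.8% had a peak over a promoter in all lists. The start regions had a median width of 1819 bp (1082 to 4045 bp), against 982 bp for the other 40 member regions in all lists and 406 bp for those in 1 list. Of the covered length, start regions differed least between the groups: their sum averaged 16791 bp in sgArid1a and 19224 bp in sgScramble (-12.7%). The other shared regions averaged 33748 bp in sgArid1a and 40258 bp in sgScramble (-16.2%), and the regions not in all lists 5532 bp in sgArid1a and 11212 bp in sgScramble (-50.7%). The same sums over all genes differed by -6.13%, -13.9% and -57.4%.

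To set ranks over the same regions in every library, the 52885 regions present in all 4 lists were ranked by the authors' fold within each list, from 0 (weakest) to 100. Eed, Suz12 and Ezh2 ranked higher in both sgArid1a lists, as did 59.5% of the 9114 start regions over all genes. The median difference over those 9114 was 7.68. Eed was at 74.1 and 72.3 in sgArid1a, against 54.7 and 53.4 in sgScramble. Suz12 was at 80.2 and 76.3 in sgArid1a, against 65.5 and 64.2 in sgScramble. Ezh2 was at 85.4 and 80.6 in sgArid1a, against 79.7 and 76.5 in sgScramble, with the groups apart by less than the spread between the sgArid1a replicates. Jarid2 had a broad and low start region, at 21.0 and 22.6 in sgArid1a, against 6.09 and 7.26 in sgScramble. Ezh1 was the only member that ranked lower in both sgArid1a lists, at 15.9 and 17.7, against 21.5 and 19.7 in sgScramble.

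Among the PRC1 genes the chromobox genes differed most. Cbx2 was at 96.0 and 95.1 in sgArid1a, against 73.7 and 86.3 in sgScramble. Cbx7 was at 22.5 and 13.8 in sgArid1a, against 2.18 and 3.28 in sgScramble. Both genes ranked higher in both sgArid1a lists, from opposite ends of the scale. Bmi1 was at 18.8 and 18.3 in sgArid1a, against 13.8 and 17.0 in sgScramble. The ligase genes overlapped: Rnf2 was at 91.5 and 91.5 in sgArid1a, against 92.4 and 82.3 in sgScramble, and Ring1 at 47.8 and 38.6, against 36.3 and 42.4.

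**Figure D4:**
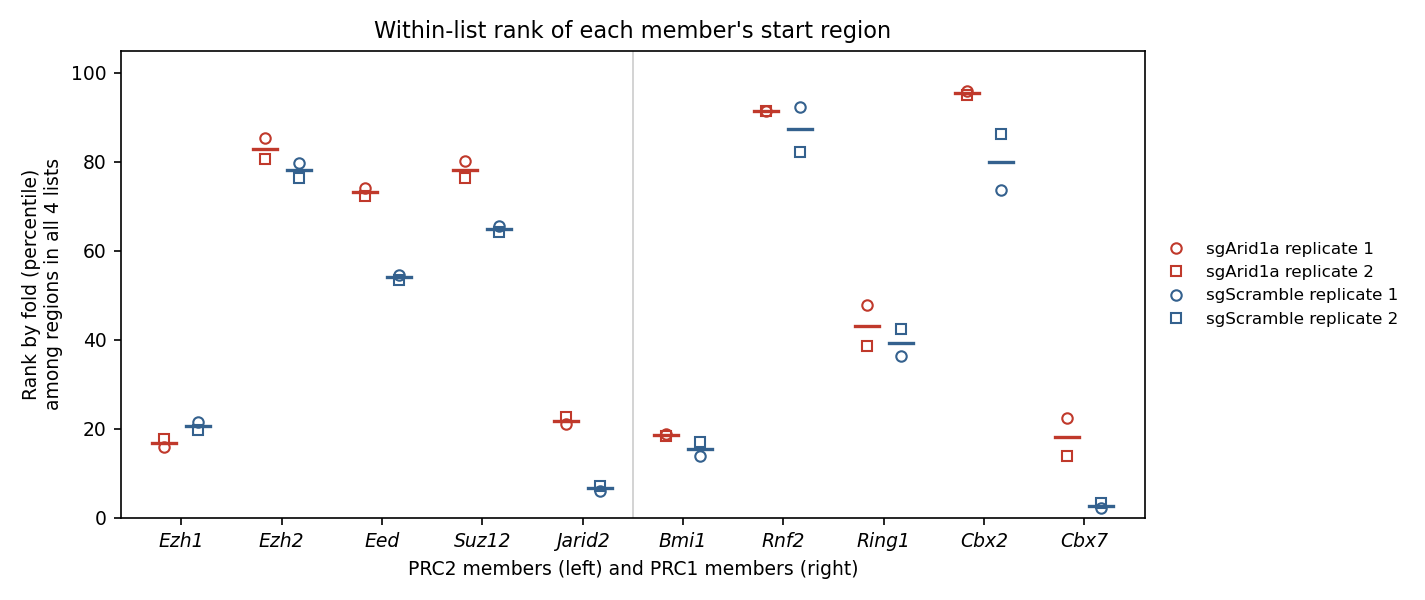
Rank of each gene's start region by the authors' fold (percentile, y axis) among the 52885 regions present in all 4 lists, with sgArid1a libraries in red left of sgScramble libraries in blue, circles for replicate 1, squares for replicate 2 and bars for the group means. The sgArid1a symbols lie above the sgScramble ones at 7 genes, by the widest margins at Eed, Cbx2, Cbx7, Jarid2 and Suz12, below them at Ezh1, and overlap them at Rnf2 and Ring1.

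In all, 7 of the 10 start regions ranked higher in both sgArid1a lists, against 59.5% of 9114 start regions over all genes, and 1 ranked lower, against 5.27%. Cbx2, read at a gene end, is among the 7, while the shares over all genes use starts of the promoter table. The median difference in rank was 9.15 for the members (range -3.80 to 19.1) and 7.68 for all start regions (quartiles 1.52 and 15.7), so the members' median lay within the quartiles of all start regions. Ranked by −log10 p in place of the fold, 4 of 10 were higher in both sgArid1a lists (Eed, Jarid2, Cbx2 and Cbx7), against 42.3%. Start regions were narrower at the same time: covered length was lower in both sgArid1a lists at 6 of 10 (Eed, Suz12, Jarid2, Ring1, Cbx2 and Cbx7), against 38.1% of all start regions. Of the 7 that ranked higher, 5 were among these narrower ones, and the part of width in the fold was not tested. Jarid2 had the widest gap, with 1746 and 1548 bp in sgArid1a, against 2756 and 2727 bp in sgScramble, followed by Cbx7 and by Cbx2, which had 1275 and 1436 bp, against 1899 and 1735 bp. The gaps at Jarid2 and Cbx7 lay mostly away from the start. Within 1 kb of the first Jarid2 start, 1565 and 1548 bp were covered in sgArid1a, against 1568 and 1576 bp in sgScramble. At Cbx7 sgArid1a was higher there, with 1368 and 1368 bp, against 1305 and 1274 bp. Within 1 kb, Eed overlapped, and Suz12 and Ring1 stayed lower in both sgArid1a lists. Among the members' 40 other shared regions, 10 ranked higher (25.0%) and 7 lower (17.5%) in both sgArid1a lists, against 23.9% and 26.3% of all such regions.

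At 40 other genes of the Polycomb system, covered length was lower in both sgArid1a lists at 21 of the 40 and higher at 5, which were Mtf2, Pcgf1, Pcgf3, Phc1 and Scml2, against the 53.9% and 3.17% of all genes given above. Of the 190 regions there that both sgScramble libraries had, 17 were missing in sgArid1a (8.95%, against 12.9%). By complex these were 2 of 29 at other PRC2 genes, 14 of 119 at other PRC1 genes and 1 of 42 at genes for H2A deubiquitination and H3K27 demethylation. The most lay at Auts2 (4 of 24 regions in both sgScramble lists), a subunit of a variant PRC1, followed by Bcor (3 of 11), a corepressor of variant PRC1, and by Kdm2b (2 of 12), which brings variant PRC1 to CpG islands, and Scmh1 (2 of 5). Scmh1 had 2835 and 3655 bp covered in sgArid1a, against 6331 and 6175 bp in sgScramble. Regions seen in both sgArid1a lists alone numbered 4 of 153 (2.61%, against 1.39%), 1 each at Mtf2, Epop, Scml2 and Mga. Mtf2, a PRC2 subunit that binds CpG-rich DNA, had 3599 and 3710 bp covered in sgArid1a, against 2062 and 3020 bp in sgScramble, the reverse of the order at the core PRC2 genes Ezh2, Eed and Suz12. Of the regions of these 40 genes, 2 also lay in the Cbx2 window, since Cbx8 adjoins it.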

How the data were processed

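Broad peaks were called by the authors library by library. The deposited columns are a score, the fold (ratio of signal to background) and the −log10 of the p-value and of the q-value. Per the submitters' processing notes, STAR 2.5.3a, HOMER, GRCm38 and mm10 were used, in roles not stated. The peak caller, and any Tn5 shift of read ends, is not given in the sources used here. Fold and −log10 values vary with depth, which is unknown, and were therefore ranked only within a list. Groups and replicate numbers came from the sample titles, although the peaks in the sgScramble lists carry names that start with sgNT.

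Peaks that shared at least 1 bp were merged into regions. Gene bodies came from the RefSeq gene table of GRCm38.p6 (10 of 10 members matched) and start sites and strands from its promoter table. A region containing the start was the start region. At Cbx2 the gene-end region was used. Gene-end regions lay within 1 kb of either end of a protein-coding gene, other regions were distal, and a missing region is one that both sgScramble lists hold and both sgArid1a lists lack. Group means of covered length and peak number were compared by exact permutation tests, two-sided. Counts are set beside the same count over all genes or regions. The members and lists were chosen with earlier results of these data known. The rule for named genes was all 10 members, neighbours whose ends their regions meet, and, of 40 other Polycomb genes, up to 5 with the most missing regions and those with a region seen in both sgArid1a lists alone. Genes of the 40 named for a higher covered length fall outside that rule and were chosen after their values were seen, as were single regions described at the members and the motif examples shown. The libraries were not treated as pairs by replicate number, except in the replicate block below. The alternatives were a stricter q, equal list lengths, the upper 50% by fold, other windows, merging, overlap and widths, scaling to the list, leaving out each library and a replicate block. On simulated lists of 5000 regions, 200 of 200 planted missing and 200 of 200 planted gained regions were recovered. The simulated regions were well spaced and free of dropout, so this checks the code and not the accuracy of the calls. Python 3.11.15, numpy 2.4.6, pandas 2.3.3 and matplotlib 3.10.9 were used.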

Additional observations from a re-analysis of the deposited data

How the results depend on the processing

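The differences in covered length (-20.3%) and in peaks (-15.8%) over the 10 windows reversed under 2 settings each: scaled to the list they were +2.40% and +3.36%, and with lists of equal length +15.0% and +14.6%, where the whole lists differed in covered length by -8.31%. Equal length removed 20.6% and 23.7% of the peaks of the sgScramble lists, those of lowest fold, against 0.00% and 8.28% of the sgArid1a lists. Leaving out each library in turn gave -28.1% to -12.5% for covered length and -22.3% to -9.35% for peaks. The replicate differences of the 2 groups were nearly uncorrelated (r = 0.0219 across 17747 genes), so libraries of the same number showed no shared deviation. This cannot tell whether they were prepared in pairs. With the replicate block the differences stayed at -20.3% and -15.8% (exact sign-flip test of 2 pairs, p = 0.5, the smallest it can give).

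The count of missing regions (4) was 7 of 47 when peaks needed a −log10 q of 5 (14.9%, against 21.5% of all regions), 2 of 42 with lists of equal length (4.76%, against 8.12%), 2 of 26 in the upper 50% by fold (7.69%, against 15.1%) and 2 of 45 for peaks of at least 500 bp (4.44%, against 13.7%). It ran from 4 to 12 when each library was left out, while the share of all regions was 17.4% to 23.1%. The count seen in both sgArid1a lists alone (0) was 6 of 46 with lists of equal length (13.0%, against 5.83% of all regions), at Ezh2, Jarid2, Ring1 and Cbx7, the start regions of Jarid2 and Cbx7 among them. All 6 have peaks in all 4 full lists, so these calls come from the removal of low-fold peaks from sgScramble. It ran from 0 to 3 when each library was left out. Members with less covered length in both sgArid1a lists (8) numbered 3 with lists of equal length. They numbered 8 to 9 when each library was left out, which drops a condition, so this count could not fall below 8. Start regions that ranked higher (7) numbered 4 of 10 by −log10 p, 5 of 10 by percentile among all peaks of the list and 5 of 8 with lists of equal length. They numbered 7 to 8 when each library was left out, which drops a condition there too. The settings for start regions, and the one without Jarid2, were chosen after the data were seen.

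For single members, 107 of 120 differences kept their direction and 13 reversed. Most reversals came under the 2 settings that take list length into account, and the other settings leave the sgArid1a lists shorter. Scaled to the list, Ezh1 (8.23%), Jarid2 (3.14%), Bmi1 (20.2%), Ring1 (26.8%), Cbx2 (6.44%) and Cbx7 (2.47%) reversed. With lists of equal length, Ezh1 (7.31%), Jarid2 (54.6%), Bmi1 (2.57%), Ring1 (31.2%) and Cbx7 (107%) did. When each library was left out, Ezh1 ran from -39.5% to 10.5%, reversing without sgArid1a replicate 1, and Ring1 from -5.04% to 0.541%, reversing without sgArid1a replicate 2. Except where given above, the causes were not tested. The lists hold no counts, so a peak absent from a list cannot be told apart from a signal below the calling threshold at that library's depth.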
